A study of Arabidopsis thaliana with 22 samples.

Results

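EXPA7 (locus AT1G12560) and EXPA18 (locus AT1G62980) are the alpha-expansins known from Arabidopsis root hairs, and they were followed here in seedlings that hold all phytochromes, phytochrome C alone or none of them. They are the genes whose probe sets carry the symbols EXPA7 and EXPA18 in the array's platform annotation. These are 2 probe sets, 1 for each gene, of 22746 tested, and 2 of 13350 genes with a probe set of their own. Both rose about equally under red light in wild type, EXPA7 by 2.73-fold and EXPA18 by 2.67-fold. Neither passed the test for a red light response in either phytochrome mutant, where few probe sets passed at all. Under continuous red light the shares called were 0.145% with phytochrome C alone and 0.00879% with no phytochrome.

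Expansins are proteins of the plant cell wall that loosen the contacts between cellulose and the other wall polymers, so that a wall under turgor can extend. A root hair is a tubular outgrowth of a single cell of the root epidermis, which bulges at its outer face and then grows at its tip. EXPA7 and EXPA18 are known from earlier work to be transcribed in hair-forming cells of the root epidermis, under the control of transcription factors of the root hair pathway. Phytochromes are the receptors through which plants perceive red and far-red light.

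Whole 4-day-old seedlings of the Arabidopsis thaliana accession Landsberg erecta were profiled on 22 Affymetrix ATH1 arrays, 1 array per sample, in 8 groups that the titles call biological replicates. The quintuple mutant phyABCDE, which lacks phytochromes A to E, was grown in continuous red light of 50 µmol photons m-2 s-1 (R50, 3 arrays), in darkness with 2 h of red light at the end (DR2h, 2 arrays) or in darkness (D, 3 arrays). The quadruple mutant phyABDE, whose only phytochrome is C, had the same 3 light treatments with 3, 2 and 3 arrays. Wild type (WT) was grown under R50 (2 arrays) or in darkness (4 arrays), and no wild-type array after 2 h of red light was used here. Every group had 4 days of cold and darkness and 3 h of white light before growth.

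The labelling kit differed between arrays. The series description assigns the One-cycle kit to both WT R50 arrays and to WT D replicates 2, 3 and 4, and the newer 3' IVT Express kit to the remaining 17 arrays. The sample labels differ from it in naming the Express kit throughout, and the series description was followed. In the fit with a kit term the red light response of wild type therefore rests on the One-cycle arrays. Each difference of level between a mutant and wild type passes through WT D replicate 1, the only wild-type array of the Express kit. The differences between their light responses do not pass through that array. Array medians lay between 40.2 and 44.9 intensity units. The phytochrome genes were not named among the probe sets used here, so the mutant labels were not checked against them. Of 23 listed marker genes of root tissues none was named among the probe sets used here, so named markers could not follow the amount of root. Listed loci whose symbol the reference does not give were not used as markers. In whole seedlings, fewer root hair cells and less RNA of these genes per cell cannot be told apart.

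EXPA7 was higher under red light in wild type. Its level was 5.18 and 5.26 log2 intensity in the WT R50 arrays, against 3.84, 3.26, 3.52 and 4.55 in WT D replicates 1 to 4. The light-grown arrays were both above every dark-grown array, and the dark arrays spread more widely, with replicate 4 nearest to the light-grown ones. As intensities, EXPA7 averaged 37.3 ± 1.55 in WT R50 (SD, n = 2) and 14.7 ± 6.12 in WT D (SD, n = 4). The log2 change was 1.45 ± 0.24 (SE; limma, adjusted p = 0.00013), with a 95% interval of 0.94 to 1.96. That fit shares 1 spread over all 8 groups, and EXPA7 varied most in WT D. With the compared arrays alone the SE was 0.33 (limma, adjusted p = 0.016).

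EXPA18 followed the same course in wild type. Its level was 5.29 and 5.61 log2 intensity in the WT R50 arrays, against 4.59, 3.87, 3.58 and 4.66 in WT D replicates 1 to 4. The groups did not overlap, and as for EXPA7 the dark replicates 1 and 4 were higher than replicates 2 and 3. As intensities, EXPA18 averaged 44.0 ± 6.94 in WT R50 (SD, n = 2) and 19.0 ± 6.73 in WT D (SD, n = 4). The log2 change was 1.42 ± 0.31 (SE; limma, adjusted p = 0.0015), with a 95% interval of 0.77 to 2.06.

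So 2 of 2 members rose with light in wild type, where 13.7% of all probe sets tested were called higher, 13.8% lower and 27.5% in either direction. The median log2 change over all probe sets in this comparison was -0.02. Of all probe sets, 2.77% had a larger log2 change than EXPA7 and 2.90% a larger one than EXPA18. Both genes were chosen with earlier results of these data known, so shares set beside them, here and below, are descriptions. Without WT D replicate 4 the log2 change was 1.83 for EXPA7 and 1.73 for EXPA18. The low level sets the scale of these changes: with 16 intensity units added to every value before the logarithm, the log2 change was 0.82 for EXPA7 and 0.87 for EXPA18, both still past the threshold.

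**Figure D1:**
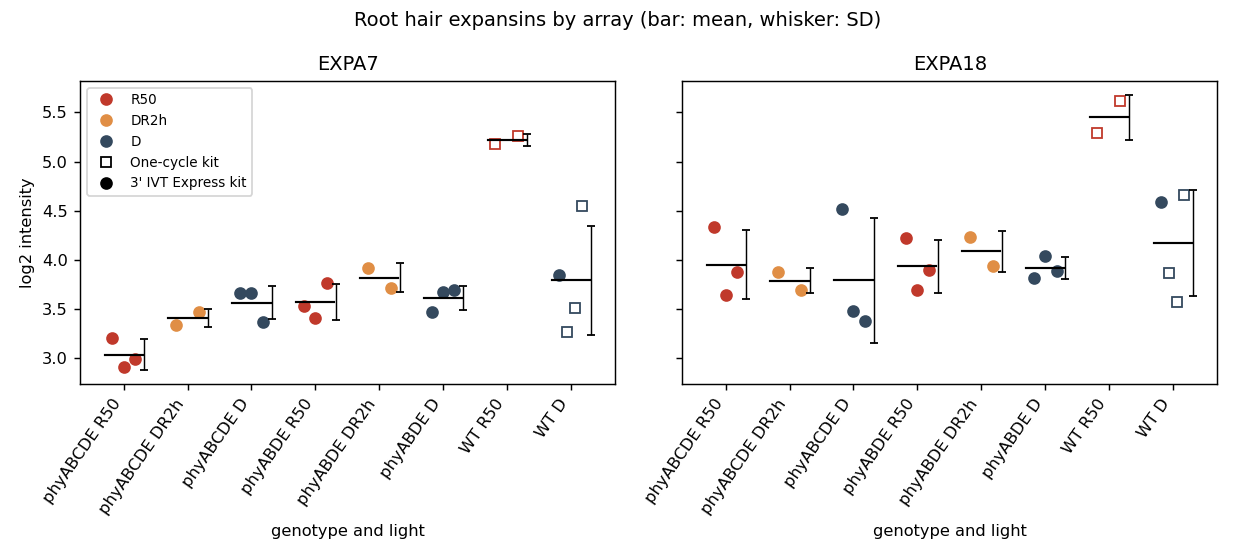
Log2 intensity (vertical axis) of EXPA7 and EXPA18 on each of the 22 arrays, by genotype and light (horizontal axis); bars are group means and whiskers the SD, open squares mark the One-cycle kit and filled circles the 3' IVT Express kit. The WT R50 arrays, from 5.18 for EXPA7 and from 5.29 for EXPA18, lie above all other arrays of the same gene.

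In the mutant that holds only phytochrome C, light left no detectable mark on either gene. EXPA7 had 3.53, 3.41 and 3.77 log2 intensity in phyABDE R50 arrays, against 3.47, 3.68 and 3.69 in phyABDE D arrays. EXPA18 had 4.22, 3.69 and 3.89 log2 intensity in phyABDE R50 arrays, against 3.82, 4.04 and 3.89 in phyABDE D arrays. The light-grown and dark-grown arrays overlapped for both genes. The log2 change was -0.04 ± 0.22 for EXPA7 (SE; limma, adjusted p = 0.96) with a 95% interval of -0.50 to 0.41. It was 0.02 ± 0.27 for EXPA18 (SE; limma, adjusted p = 0.99) with an interval of -0.56 to 0.59. The upper ends of both intervals lie below the change measured in wild type, and in this comparison 0.145% of all probe sets were called.

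In the mutant without any phytochrome, EXPA7 was at its lowest under continuous red light. It had 3.21, 2.91 and 2.99 log2 intensity in phyABCDE R50 arrays, against 3.66, 3.67 and 3.37 in phyABCDE D arrays. These 3 light-grown arrays held the lowest EXPA7 values of all 22 and did not overlap with the dark-grown ones. The log2 change was -0.53 ± 0.22 (SE), with a 95% interval of -0.99 to -0.07, which excludes 0, but it did not pass the threshold over all probe sets (limma, adjusted p = 0.85). That fit leaves the replicates unpaired. With the replicate number as a block the SE was 0.13, and the change still did not pass (limma, adjusted p = 0.34). In this comparison 0.00879% of all probe sets were called.

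EXPA18 did not share this low value. It had 4.33, 3.64 and 3.88 log2 intensity in phyABCDE R50 arrays, against 4.52, 3.48 and 3.38 in phyABCDE D arrays. In both treatments replicate 1 was the highest and the groups overlapped. The log2 change was 0.16 ± 0.27 (SE; limma, adjusted p = 0.99), with a 95% interval of -0.42 to 0.73.

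A pulse of 2 h of red light after darkness was measured in the mutants. EXPA7 had 3.92 and 3.71 log2 intensity in phyABDE DR2h arrays and 3.34 and 3.47 in phyABCDE DR2h arrays. EXPA18 had 4.24 and 3.94 log2 intensity in phyABDE DR2h arrays and 3.88 and 3.70 in phyABCDE DR2h arrays. The DR2h arrays of phyABDE lay above its dark arrays for EXPA7 without overlap, and the other 3 sets overlapped their dark arrays. Against the dark arrays of the same mutant, the log2 change of EXPA7 was 0.20 ± 0.24 in phyABDE (SE; limma, adjusted p = 1.0) and -0.16 ± 0.24 in phyABCDE (SE; limma, adjusted p = 0.96). For EXPA18 it was 0.17 ± 0.31 in phyABDE and -0.01 ± 0.31 in phyABCDE (SE; limma, adjusted p = 1.0 for both). By limma the pulse thus gave 0 of 2 members called in either mutant, and 0 at an unadjusted p under 0.05, where 0.0044% of all probe sets were called in phyABDE and 0.0176% in phyABCDE.

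The difference between the light responses was tested directly. The R50 response of EXPA7 in phyABDE minus that in wild type was -1.49 ± 0.33 on the log2 scale (SE; limma, adjusted p = 0.0036), and for phyABCDE it was -1.98 ± 0.33 (SE; limma, adjusted p = 0.00024). For EXPA18 the difference was -1.40 ± 0.41 in phyABDE (SE; limma, adjusted p = 0.028) and -1.26 ± 0.41 in phyABCDE (SE; limma, adjusted p = 0.041). Both members passed against both mutants, where 6.97% of all probe sets had a lower response in phyABDE than in wild type and 8.27% in phyABCDE. These comparisons share the wild-type arrays.

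The calls for EXPA7 held in each alternative that gave a value, and those for EXPA18 did not. With 16 intensity units added, the differences were -0.84 and -1.02 for EXPA7 and -0.85 and -0.81 for EXPA18 in phyABDE and phyABCDE, all past the threshold. Without the kit term the EXPA18 difference was -1.26 in phyABDE (adjusted p = 0.056) and -1.12 in phyABCDE (adjusted p = 0.081). The phyABDE call for EXPA18 was also lost without any 1 of phyABDE D replicate 2, phyABDE R50 replicate 2 or 3, WT D replicate 2 or 3, or WT R50 replicate 2, with values between -1.38 and -1.17. The phyABCDE call was lost without any 1 of phyABCDE D replicate 1 (-0.89), phyABCDE R50 replicate 2 or 3, WT D replicate 2 or 3, or WT R50 replicate 1 or 2, with values between -1.42 and -0.89, and in a fit of the compared arrays alone (adjusted p = 0.11).

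Between the mutants, the R50 response of EXPA7 in phyABCDE minus that in phyABDE was -0.48 ± 0.31 on the log2 scale (SE; limma, adjusted p = 1.0). For EXPA18 the same difference was 0.14 ± 0.39 (SE; limma, adjusted p = 1.0). The intervals were -1.13 to 0.16 for EXPA7 and -0.67 to 0.95 for EXPA18, so differences of up to these sizes could not be told from none. No probe set of 22746 was called in this comparison by limma, and 899 had an unadjusted p under 0.05.

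Under red light both genes were lower in the mutants than in wild type. The log2 difference of EXPA7 in phyABDE R50 against WT R50 was -1.72 ± 0.39 (SE; limma, adjusted p = 0.0069), or 3.30-fold lower. In phyABCDE R50 against WT R50 it was -2.25 ± 0.39 (SE; limma, adjusted p = 0.00055), or 4.76-fold lower. The log2 difference of EXPA18 was -2.07 ± 0.50 in phyABDE R50 (SE; limma, adjusted p = 0.0097) and -2.05 ± 0.50 in phyABCDE R50 (SE; limma, adjusted p = 0.0083), or 4.20-fold and 4.15-fold lower. Thus 2 of 2 members were called lower in each mutant, where 6.14% of all probe sets were called lower in phyABDE and 7.25% in phyABCDE. The mutant arrays and the WT R50 arrays have different kits throughout, and the kit term itself (One-cycle minus Express) was -0.07 ± 0.31 for EXPA7 and -0.56 ± 0.39 for EXPA18 (SE; limma, adjusted p = 0.94 and 0.46). Without it, the 4 differences stayed past the threshold. The folds depend on the dim mutant values: with 16 intensity units added, the log2 difference of EXPA7 was -0.94 in phyABDE and -1.14 in phyABCDE, and that of EXPA18 -1.22 and -1.21, all still past the threshold.

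In darkness the genotypes were closer. EXPA7 was -0.23 ± 0.31 on the log2 scale in phyABDE D against WT D (SE; limma, adjusted p = 0.85) and -0.28 ± 0.31 in phyABCDE D against WT D (SE; limma, adjusted p = 0.74). EXPA18 was -0.67 ± 0.39 in phyABDE D (SE; limma, adjusted p = 0.54) and -0.80 ± 0.39 in phyABCDE D (SE; limma, adjusted p = 0.30). By limma no member was called, and none had an unadjusted p under 0.05, where 0.805% of all probe sets were called for phyABDE and 3.6% for phyABCDE. The intervals for EXPA18, -1.49 to 0.14 and -1.61 to 0.02, leave room for a difference as large as the wild-type light response. Without the kit term, and so without resting on WT D replicate 1 alone, the EXPA18 values were -0.26 in phyABDE and -0.38 in phyABCDE (adjusted p = 0.54 and 0.33).

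The mutants were also set against each other at each light treatment. EXPA7 was -0.53 ± 0.22 on the log2 scale in phyABCDE R50 against phyABDE R50 (SE; limma, adjusted p = 0.19), and the arrays of these groups did not overlap. It was -0.41 ± 0.27 in phyABCDE DR2h against phyABDE DR2h (SE; limma, adjusted p = 0.65) and -0.05 ± 0.22 in phyABCDE D against phyABDE D (SE; limma, adjusted p = 0.97). EXPA18 was 0.02 ± 0.27, -0.30 ± 0.34 and -0.12 ± 0.27 on the log2 scale in the same R50, DR2h and D comparisons (SE; limma, adjusted p between 0.86 and 0.99). No member passed, where 3.97%, 1.2% and 2.33% of all probe sets were called.

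**Figure D2:**
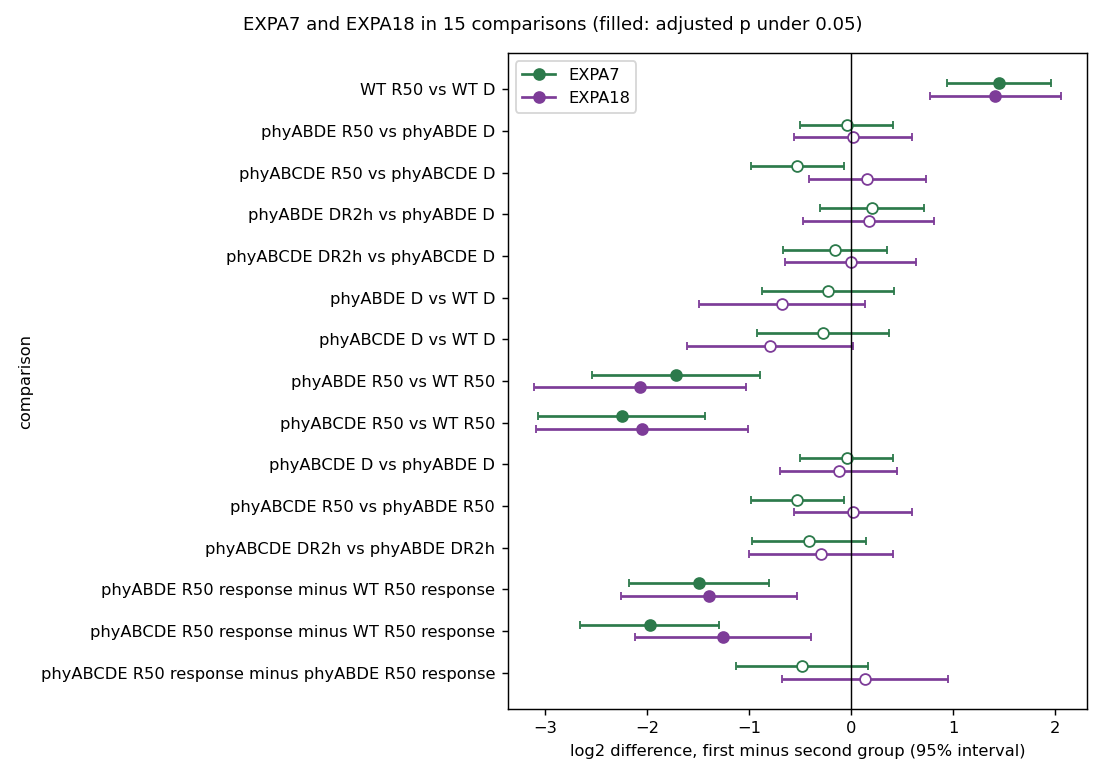
Log2 difference, first minus second named group (horizontal axis, with 95% intervals), of EXPA7 and EXPA18 in 15 comparisons (vertical axis); filled points have an adjusted p under 0.05. Filled points stand at WT R50 against WT D, at both mutants against WT under R50 and at both differences of response from wild type, and all others are open.

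Ordered by group mean, EXPA7 was highest in WT R50 at 5.22 ± 0.06 log2 intensity (SD, n = 2). After a gap of 1.40 followed phyABDE DR2h at 3.82, WT D at 3.79, phyABDE D at 3.61, phyABDE R50 at 3.57, phyABCDE D at 3.57 and phyABCDE DR2h at 3.41, each of which overlapped its neighbour. The lowest was phyABCDE R50 at 3.04 ± 0.16 (SD, n = 3), whose mean lay 0.37 below the next and whose arrays did not overlap with that group. EXPA18 was likewise highest in WT R50, at 5.45 ± 0.23 (SD, n = 2), and 1.28 above the next group. The other 7 groups ran from WT D at 4.17 ± 0.54 (SD, n = 4) through phyABDE DR2h at 4.09, phyABCDE R50 at 3.95, phyABDE R50 at 3.93, phyABDE D at 3.92 and phyABCDE D at 3.79 to phyABCDE DR2h at 3.79, and each overlapped its neighbour. These are orders within each probe set, since levels of different probes are not comparable.

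Outside light-grown wild type the signal of both genes was dim. EXPA7 ranged from 2.91 to 3.92 log2 intensity over the 16 mutant arrays, with a median of 3.50, and EXPA18 from 3.38 to 4.52 with a median of 3.88. The lower quartile of all probe sets on these arrays lay between 3.22 and 3.34, so EXPA7 in phyABCDE R50 was below it. No detection calls were used here, so whether such a value stands above the background of its probes is not known, and a fold change from such a level may understate the change in RNA.

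Over the 22 arrays EXPA7 and EXPA18 correlated with a Pearson r of 0.84, and over the 20 arrays other than WT R50 with an r of 0.54, both given as descriptions. With each group's mean removed, r was 0.64 over the 22 arrays and 0.53 over the 16 mutant arrays, so arrays above their group's mean for EXPA7 tended to be above it for EXPA18. Deviations within a group share the array and its sample. For the levels over the 16 mutant arrays, Pearson's r was 0.27 (permutation p = 0.31) and Spearman's rho 0.40 (permutation p = 0.12). Without the 2 arrays farthest from the median of EXPA7, r was 0.19. For these levels a relation across the mutant arrays was not detectable with 16 arrays.

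Most of the genes listed with root hairs were not named among the probe sets used here: 5 of 71 genes for root hair transcription factors, epidermal fate, wall and tip growth were. XTH26, a xyloglucan endotransglucosylase/hydrolase known from root hairs, had 4.31 and 4.96 log2 intensity in WT R50 arrays, against 3.93, 3.04, 3.26 and 4.97 in WT D replicates 1 to 4. Here the light and dark arrays overlapped, since dark replicate 4 was as high as the light-grown ones, and the log2 change of 0.88 ± 0.36 (SE; limma, adjusted p = 0.077) did not pass. With array weights it was 1.09 (adjusted p = 0.014) and with the replicate number as a block 1.93 (adjusted p = 4.6e-05). Leaving out single arrays gave 0.52 (without WT D replicate 2), 0.56 (without WT R50 replicate 2) and up to 1.49 without WT D replicate 4 (adjusted p = 1.2e-05), the only one of these 6 fits that passed.

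The other named genes of the root hair lists did not pass in wild type. The log2 change was -0.40 for CSLD2, a cellulose synthase-like protein needed for root hair growth, and -0.18 for FER, a receptor kinase of the cell surface. It was 0.03 for SCN1, which confines hair growth to a single site on the cell, and 0.02 for TRY, a small MYB protein of epidermal patterning (limma, adjusted p between 0.14 and 0.94 for these 4). A further 4 loci, drawn from any of the lists and not only those of root hairs, have a symbol that the reference does not give. Of these 4, 3 rose in wild type, where 13.7% of all probe sets were called higher. AT4G26010 rose by 2.83, AT1G30870 by 1.57 and AT1G62500 by 0.66 on the log2 scale (limma, adjusted p = 0.0037, 0.0069 and 0.03), while AT2G14760 changed by -0.07 (adjusted p = 0.80). These loci carry no role here.

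Any alpha-expansin among the 8730 probe sets unnamed here could not be followed. Among the 10 named with a probe set of their own, EXPA7 and EXPA18 had the highest estimates under red light in wild type. Their difference from the next, EXPA16, was not tested. Of the 8 others, 1 rose, 2 fell and 5 did not pass the test, against 13.7% called higher and 13.8% called lower among the probe sets tested. The median log2 change of these 8 was -0.04, against -0.02 over all probe sets. EXPA16 had 4.40 and 4.64 log2 intensity in WT R50 arrays, against 3.61, 3.40, 3.88 and 3.30 in WT D arrays, and its log2 change was 1.00 ± 0.17 (SE; limma, adjusted p = 0.00017). Its light-grown arrays also lay above all dark ones, but its dark replicate 4 was the lowest of the group and not the highest. EXPA9 fell by 1.97 ± 0.20 and EXPA8 by 1.43 ± 0.22 on the log2 scale (SE; limma, adjusted p = 4.3e-07 and 4.6e-05), and EXPA4, EXPA15 and EXPA20 changed by -0.45, 0.12 and -0.07 (adjusted p = 0.17, 0.71 and 0.84).

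The 3 other alpha-expansins that responded in wild type had a different response in the mutants. They were picked by their wild-type response, which is itself part of these differences, so the values are given without weight on the tests. The R50 response of EXPA16 minus that in wild type was -1.12 ± 0.23 in phyABDE and -0.78 ± 0.23 in phyABCDE on the log2 scale (SE; limma, adjusted p = 0.0021 and 0.024). The same difference was 2.10 ± 0.27 and 2.22 ± 0.27 for EXPA9, and 0.95 ± 0.29 and 1.12 ± 0.29 for EXPA8, in phyABDE and phyABCDE (SE; limma, adjusted p between 1e-05 and 0.037). None of the 8 was called in the R50 or DR2h response of either mutant, where few probe sets were called at all. The shares were 0.145% in phyABDE and 0.00879% in phyABCDE for R50, and 0.0044% and 0.0176% for DR2h.

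Genes of other wall-modifying families, listed by their symbols after the table was opened, are set beside the same shares of 13.7% higher and 13.8% lower over all probe sets. Only members named among the probe sets used here are counted. Of 8 beta-expansins and expansin-like genes 0 rose and 5 fell in wild type under R50, the largest being EXLA2 by 2.60 and EXPB1 by 2.06 on the log2 scale (limma, adjusted p = 7.5e-08 and 3.8e-07). Of 10 XTH genes, whose enzymes cut and rejoin xyloglucan, 2 rose and 2 fell. Of 15 endoglucanase genes of family GH9, 1 rose and 6 fell. The gene that rose was GH9C1, by 1.73 ± 0.27 on the log2 scale (SE; limma, adjusted p = 6.2e-05), a change as large as those of EXPA7 and EXPA18.

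**Figure D3:**
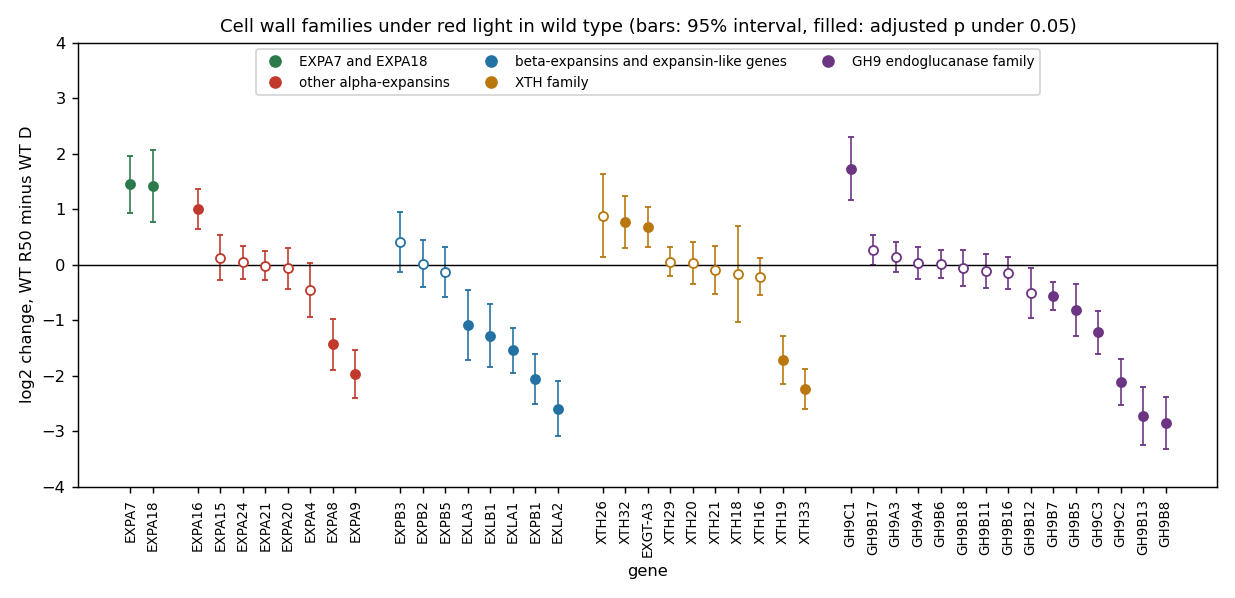
Log2 change in WT R50 against WT D (vertical axis, with 95% intervals) for EXPA7, EXPA18 and the measured genes of related wall families (horizontal axis), sorted within each family; filled points have an adjusted p under 0.05. EXPA7 at 1.45 and EXPA18 at 1.42 stand above the 8 other alpha-expansins named here, and most filled points of the other families lie below 0.

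Likeness of pattern was measured as the lower of the Pearson r with EXPA7 and with EXPA18 over the 22 arrays, among 5859 probe sets with 1 gene and a range of at least 1 log2 unit. The 8 genes most like the expansins were AT5G04960 (likeness 0.92), GH9C1 (0.90), AT4G30320 (0.89), AT3G49960 (0.88), AT2G47540 (0.88), AT4G25790 (0.87), AT4G26010 (0.87) and AT3G22060 (0.84). Apart from GH9C1 the reference gives them no symbol. The values share the arrays, the kit and the step between light-grown wild type and the rest, and likeness is given as a description. Over the 17 Express arrays alone, which hold no light-grown wild type, 0 of these 8 were among the 8 most alike, and their median rank was 119.

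GH9C1 had 5.00 and 5.24 log2 intensity in WT R50 arrays, against 3.60, 3.12, 3.04 and 4.02 in WT D replicates 1 to 4, and between 2.79 and 4.04 in the 16 mutant arrays. AT3G22060 had 7.91 and 8.53 in WT R50 arrays, against 2.73, 2.76, 2.92 and 4.71 in WT D arrays, and between 2.46 and 3.01 in the mutants. AT4G26010 had 7.86 and 8.25 in WT R50 arrays, against 6.90, 4.32, 4.13 and 7.22 in WT D arrays, and between 3.80 and 5.62 in the mutants. In all 3, as in EXPA7 and EXPA18, both light-grown wild-type arrays were the highest of all and WT D replicate 4 the highest dark array. WT D replicate 1, the Express array, stood beside replicate 4 in AT4G26010 and with the low replicates in AT3G22060.

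The 8 genes were chosen for this pattern, so their values are given without weight on the tests. Their log2 change in WT R50 against WT D lay between 1.33 for AT4G25790 and 4.76 for AT3G22060. Their difference of response from wild type lay between -4.92 and -1.25 in phyABDE and between -4.83 and -1.28 in phyABCDE.

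**Figure D4:**
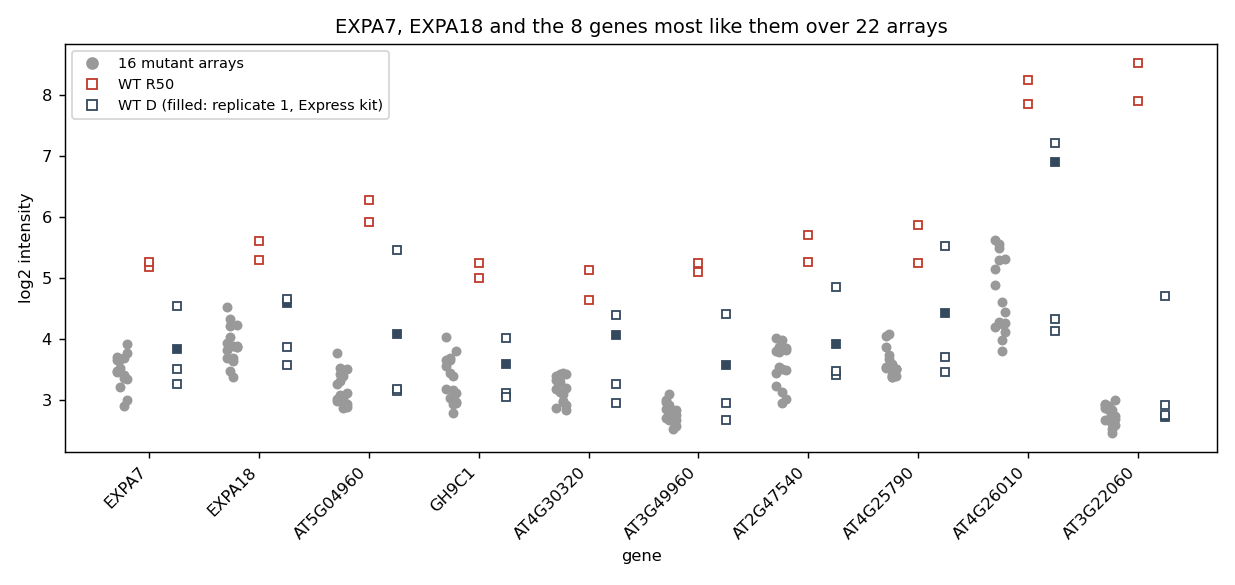
Log2 intensity (vertical axis) of EXPA7, EXPA18 and the 8 genes most like them over 22 arrays (horizontal axis); grey circles are the 16 mutant arrays, red squares WT R50 and blue squares WT D, the filled one being replicate 1 of the Express kit. For each gene both WT R50 arrays lie highest, except AT4G25790, where WT D replicate 4 lies between them, and the dark wild-type arrays are spread, as for AT4G26010 from 4.13 to 7.22.

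Other measures also differed between groups, not all in the pattern of the expansins. Of the markers of other tissues, 3 of 6 listed shoot epidermis and leaf genes were named among the probe sets used here. All 3 rose in WT R50 against WT D, where 13.7% of all probe sets were called higher. YAB5 of leaf polarity rose by 2.40, and FMA and SPCH of the stomatal lineage by 1.68 and 1.23 on the log2 scale (limma, adjusted p = 2.6e-09, 8.7e-07 and 3.3e-05). Under R50 these 3 were called lower in both mutants than in wild type. The share of all probe sets called lower there was 6.14% in phyABDE and 7.25% in phyABCDE. The seed maturation genes M17 and LEA4-5, the 2 measured of 22 listed, had a mean level between 6.87 and 10.75 log2 intensity over the 16 mutant arrays, against 5.09 and 5.98 in WT R50 and 3.47 to 5.55 in WT D arrays. M17 was higher in both mutants than in wild type under R50, by 6.41 in phyABDE and 7.79 in phyABCDE on the log2 scale (limma, adjusted p = 0.0021 and 0.00026). LEA4-5 did not pass there, at -0.16 and 1.45 (limma, adjusted p = 0.96 and 0.45). WT D replicate 4 had the highest seed level of the dark wild-type arrays and also the highest EXPA7 and EXPA18. The log2 ratio of the 3' to the 5' actin probes, a measure of RNA integrity, was 3.31 and 3.45 in WT R50 arrays, against 3.03 to 3.21 in WT D arrays. Over the 16 mutant arrays it ran from 3.13 to 3.80. The same ratio of the GAPDH probes did not separate the wild-type groups, at 0.30 and 0.21 in WT R50 arrays against -0.05 to 0.24 in WT D arrays. The part of these measures in the results on the expansins was not tested.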

How the data were processed

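Whole-seedling RNA was measured on 22 one-colour arrays. The authors deposited 1 linear intensity per probe set and array. RMA, GCOS and limma are listed in the submitters' processing notes, with no role for each, and further steps are not given in the sources used here. Array medians were nearly equal, so no normalization was added and values were analysed as log2 intensity. Replicates are biological per the titles, and the number of arrays limits the precision.

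Of 22810 probe sets, 64 controls were left out. The platform annotation gives 1 gene for 13513 probe sets, several for 503 and none for 8730, which are unnamed here, and 13436 of the 13513 matched a RefSeq locus. Each probe set was fitted with limma 3.58.1 (R 4.3.3) with a mean per group and a kit term over all 22 arrays (13 residual degrees of freedom), and p-values were adjusted by Benjamini-Hochberg within each of 15 comparisons, with a threshold of 0.05. On data simulated for WT R50 against WT D over 22746 probe sets, 92% of planted changes of 1.0 log2 and 97% of 1.5 log2 were recovered, with 9 false calls. The simulation changed 100 probe sets at each size and gave a probe set the same spread in every group. In the data EXPA7 varied more in WT D (SD 0.56) than in the other groups, so these shares do not describe it.

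The 2 genes and all lists were chosen with earlier results of these data known. Of 122 genes in 10 lists, 10 were measured under the symbol the RefSeq table (names only) gives their locus, and 5 lists had none. For named genes, the rule took the 4 members of a list with the largest absolute change in wild type (6 for root hair wall, tip growth and alpha-expansins) and the 8 genes most alike in pattern over arrays, using the brightest probe set of a gene. The lists of beta-expansins, XTH and GH9 genes were added later.

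Replicate numbers in the labels were checked for pairing by the correlation of deviations from group means. Within a mutant, R50 and D arrays of the same number correlated in every pair (r = 0.33, 0.12 and 0.25 in phyABCDE, and 0.48, 0.18 and 0.11 in phyABDE), and they were taken as pairs. The pairs enter only the replicate block, and the main fit left them unpaired. DR2h against D and most between-genotype sets held negative r. In wild type r was 0.15 and 0.08, and between the DR2h arrays of the mutants it was 0.27. These were not taken as pairs either, and no fixed cut-off for r was used. Alternatives were no kit term, an offset of 16, array weights, quantile normalization, a variance trend, a replicate block, the compared arrays alone, probe sets with 1 gene, and each array left out.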

Additional observations from a re-analysis of the deposited data

Results flagged for a closer look

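The light response of EXPA7 differed between genotypes by the test of the difference itself: phyABDE R50 response minus WT R50 response was -1.49 on the log2 scale and that of phyABCDE -1.98. For EXPA18 these differences were -1.40 in phyABDE and -1.26 in phyABCDE, both close to the threshold. One array stood far from the rest of its group: AT3G22060, a gene alike in pattern, had 4.71 log2 intensity in the highest WT D array (replicate 4), against 2.73 to 2.92 in the other dark wild-type arrays. Chance alone gives such a gap in about 1 in 20 groups, and no value of EXPA7 or EXPA18 met this criterion in WT D, the only group large enough to be examined.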

How the results depend on the processing

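The rise of EXPA7 and EXPA18 in wild type passed the threshold in each alternative run, with log2 changes of 0.82 to 2.00 and 0.87 to 1.75. The highest adjusted p among these limma fits was 0.016 for EXPA7 and 0.03 for EXPA18. Leaving out each array in turn gave 1.19 to 1.83 for EXPA7 and 1.19 to 1.73 for EXPA18. The EXPA7 differences of response stayed past the threshold, at -1.88 to -1.24 in phyABDE and -2.36 to -1.72 in phyABCDE with each array left out. For EXPA18 the leave-one-out values were -1.71 to -1.17 and -1.57 to -0.89, with 6 and 7 of 12 fits no longer past it. Without the kit term they were -1.26 and -1.12, and with the compared arrays alone -1.26 in phyABCDE.

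Pairing replicates as a block in the mutants' R50 responses changed no call. Over genotypes, where the numbers were not taken as pairs, the replicate block gave EXPA7 -0.53 in phyABCDE R50 against phyABDE R50 with limma's adjusted p = 0.032. In wild type the block gave 2.00 for EXPA7 and 1.75 for EXPA18, and TRY -0.27.

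Values near 0 changed sign. EXPA18 in phyABDE R50 against D was -0.023 with array weights and -0.0016 with quantile normalization, and in phyABCDE DR2h against D 0.10 and 0.015. TRY in wild type was -0.0049 without the kit term and -0.017 with quantile normalization. With single arrays left out, EXPA18 ran from -0.12 to 0.14 in phyABDE R50 against D, -0.050 to 0.52 in phyABCDE R50 against D, -0.21 to 0.36 in phyABCDE DR2h against D, -0.49 to 0.086 in phyABCDE D against phyABDE D, -0.17 to 0.17 in phyABCDE R50 against phyABDE R50, and -0.069 to 0.50 for the difference between the mutants' responses. EXPA7 ran from -0.15 to 0.035 in phyABDE R50 against D and -0.12 to 0.053 in phyABCDE D against phyABDE D. In wild type SCN1 ran from -0.060 to 0.12 and FER from -0.28 to 0.0080. The cause was not tested. Among the genes alike in pattern, AT4G25790 no longer passed in wild type with the compared arrays alone (1.33, adjusted p = 0.13) or without WT D replicate 2 or 3 or WT R50 replicate 2 (0.95 to 1.07).

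The number of probe sets called in wild type was 6245, against 3797 with the replicate block and 3180 among probe sets with 1 gene. For the differences of response from wild type it was 3097 in phyABDE and 3906 in phyABCDE, against 1543 and 1923 among probe sets with 1 gene, where fewer are tested.

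A minimum mean of 5 log2 removed both expansins, so it gave no value. The level of a mutant against wild type could not be fitted with a kit term without WT D replicate 1. Both genes had a dim signal in the mutants, and whether this limits the size of a measurable decrease there was not tested.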
